A study of Mus musculus with 10 samples.

Results

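The 10 genes described here encode the calcium and potassium channels, and the calcium sensors that gate them, through which a thymocyte raises and sustains its calcium signal: Orai1, Orai2, Orai3, Stim1, Stim2, Kcna3, Kcnn4, Trpm7, Itpr1 and Itpr3. They were chosen by name and make up 10 of the 23005 genes given a symbol in the short-read transcript files. A gene's level was taken as the summed FPKM (fragments scaled for the length of the transcript and for the size of the library) of its RefSeq transcripts and of assembled multi-exon transcripts that share an intron with that gene alone. In the long-read catalogues the genes were taken as the isoforms that the authors' annotation assigned to them.

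The study set mature CD8 single-positive (CD8SP) thymocytes beside mature CD4 single-positive (CD4SP) thymocytes, the last thymic stages before killer-lineage and helper-lineage T cells leave for the periphery. Both came from wild-type C57BL/6 mice aged 6 to 8 weeks, with no treatment. Thymi of 2 or 3 mice were pooled per sample, cells carrying the other co-receptor were depleted on magnetic beads, and TCRβ+ CD24- cells were sorted as CD8+ CD4- or CD4+ CD8-. Each lineage has 1 long-read PacBio library and 4 lanes of rRNA-depleted Illumina sequencing, and the 4 lanes are merged in 1 deposited transcript file.

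There is therefore 1 short-read value and 1 long-read catalogue per lineage, no replicate error and no test. The interval behind each FPKM is the one deposited with it, summed over a gene's transcripts, and covers the estimate within that file only. The number of fragments behind a value is not given in the files. A gene was called under 3 conditions: a level of 1 FPKM or more in the higher lineage, a log2 ratio of CD8SP over CD4SP (0.1 added to each level) of 1 or more in either direction, and intervals that stay apart. The sort labels stood against their markers as follows. Cd8a, Cd8b1 and Itgae summed to 791 FPKM in CD8SP and 44.6 FPKM in CD4SP, and Cd4, Zbtb7b and Cd40lg to 2.17 FPKM in CD8SP and 142.6 FPKM in CD4SP. Markers of other cells were lower, and some depended on the measure. The 6 B cell genes summed to 5.52 FPKM in CD8SP and 1.23 FPKM in CD4SP, with Pax5 at 0 in both, but to 5.40 FPKM in CD8SP and 8.02 FPKM in CD4SP by an exon-based value described below. Most of the difference was Cd79a, at 0 in both sums but at 0.248 FPKM in CD8SP and 7.05 FPKM in CD4SP by the exon-based value. The 5 NK and innate-like genes summed to 0.290 FPKM in CD8SP and 4.85 FPKM in CD4SP, and to 2.37 FPKM in CD8SP and 5.001 FPKM in CD4SP by the exon-based value, with Ncr1 at 0 by both. The 6 myeloid and dendritic genes summed to 5.31 FPKM in CD8SP and 9.91 FPKM in CD4SP. The 6 immature thymocyte genes summed to 28.0 FPKM in CD8SP and 44.8 FPKM in CD4SP. Among them Rag1, at 4.12 FPKM in CD8SP and 12.5 FPKM in CD4SP, was called as higher in CD4SP by both measures. Arpp21, at 2.07 FPKM in CD8SP and 5.54 FPKM in CD4SP, was called by the sum only. Dntt and Cd24a were not called, and Rag2 and Ptcra stayed under 1 FPKM. The part of these cells in any value below was not tested, and in sorted bulk RNA fewer cells of a type and less RNA per cell cannot be told apart.

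When a T cell receptor is engaged, phospholipase C makes inositol trisphosphate, which opens IP3 receptors in the endoplasmic reticulum. STIM proteins sense the emptied store and open ORAI pores in the plasma membrane, the calcium release-activated calcium current. Potassium leaving through Kv1.3 and KCa3.1 keeps the membrane negative, so that calcium continues to enter, and calcium then activates NFAT, the transcription factor behind much of the T cell response.

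All 10 genes reached 1 FPKM in at least 1 lineage. Orai3 and Kcna3 were called, both higher in CD8SP, and the other 8 were not. Among all 9620 genes tested, 14.8% were called, 10.02% as higher in CD8SP and 4.76% as higher in CD4SP. Both Stim1 and Itpr3 lay higher in CD8SP over every exon without reaching the fold required, as Kcnn4 and Itpr1 lay higher in CD4SP. Exon values are built from whole transcripts, as described below, so the exons of a gene are not separate measurements. The log2 ratio was above 0 for 6 genes and below 0 for 4, with a median of 0.50, against 0.22 over all genes tested. Levels ran slightly higher in CD8SP throughout, with a median log2 ratio of 0.21 over the 8699 genes at 1 FPKM or more in both lineages, and with the libraries scaled to it none of the 10 summed levels changed direction, while the exon-based log2 ratio of Orai1 became -0.15. For 8 of the 10 genes the intervals did not overlap, as for 54.6% of all genes tested; the exceptions were Stim2 and Itpr1. The deposited FPKM of some transcripts lies outside their own interval, and this carried over to 4 of the 20 gene levels, named where they are given.

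**Figure D1:**
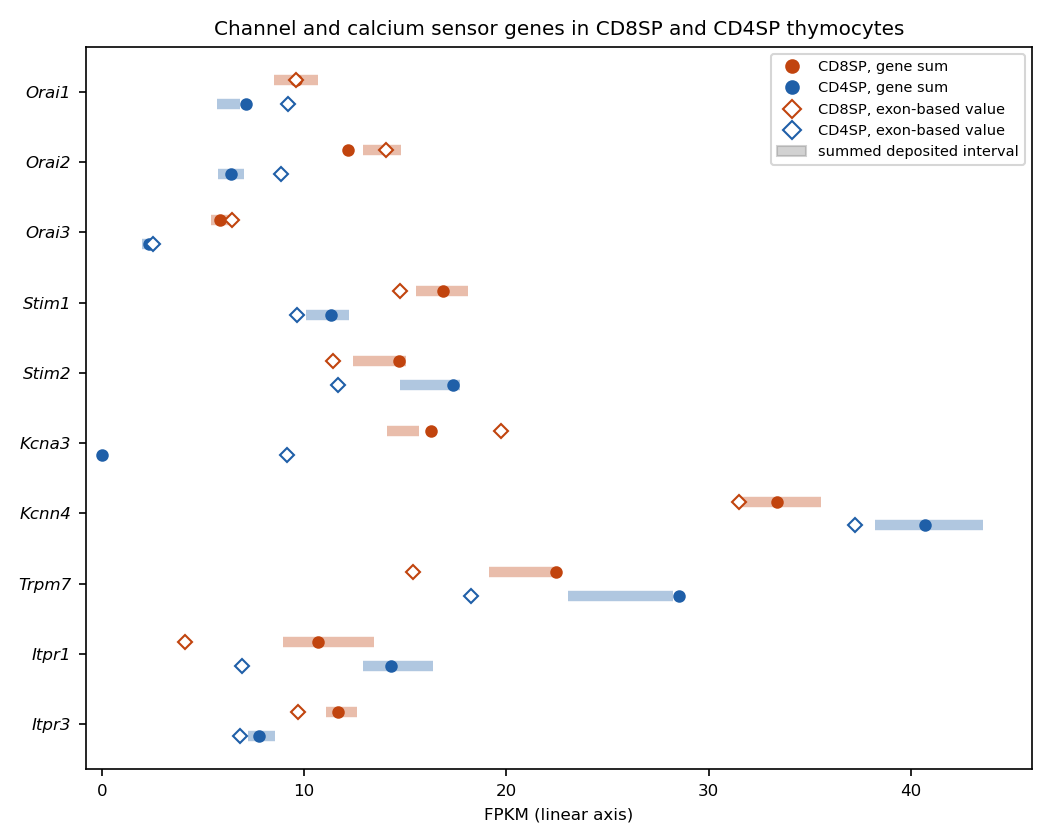
FPKM of the 10 genes in CD8SP (red, upper line of each gene) and CD4SP (blue, lower line). Filled circles are gene sums, shaded bars the summed deposited intervals and open diamonds the exon-based values; Orai3 and Kcna3 stand furthest apart relative to their levels, while Kcnn4 is the highest gene in both lineages.

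A second measure was used because assembled transcripts can take over a gene's fragments. For this exon-based value, the FPKM of each transcript (200 bases or longer) is weighted by how much of the RefSeq exon sequence it spans. Transcripts on the strand of the gene enter, and so do any with no strand given. Values of single exons were built likewise, from the FPKM of transcripts over that exon and not from reads counted in it. A transcript through all exons adds the same FPKM to each of them. The exon-based values of Orai1 in CD4SP and of Kcna3 in both lineages lie above their own summed intervals, and that of Orai2 in CD8SP below its own. By this measure 2 of the 10 genes were called, again Orai3 and Kcna3, against 10.9% of 9787 genes.

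The IP3 receptors release calcium from the store. Itpr1 encodes the type 1 receptor, best known from neurons, and spans chr6:108213096-108551116 on GRCm38 in its 62-exon RefSeq model. It had 10.7 FPKM in CD8SP, with an interval of 8.97 to 13.4, and 14.3 FPKM in CD4SP, with an interval of 12.9 to 16.4. At a log2 ratio of -0.42 the intervals overlapped. Only 21.6% of that sum in CD8SP and 22.7% in CD4SP belonged to the RefSeq transcript; the rest lay in 15 assembled transcripts above 0 in CD8SP and 12 in CD4SP, many of them fragments of the gene. The exon-based value was 4.12 FPKM in CD8SP and 6.90 FPKM in CD4SP, a 1.68-fold difference, and all 62 exons were higher in CD4SP.

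Itpr3, the type 3 receptor, showed the opposite order. It had 11.7 FPKM in CD8SP, with an interval of 11.1 to 12.6, and 7.75 FPKM in CD4SP, with an interval of 7.21 to 8.55. The log2 ratio was 0.59. All 58 exons were higher in CD8SP, by between 1.18-fold and 1.79-fold, but the RefSeq transcript enters each of them, at 8.74 FPKM in CD8SP and 5.79 FPKM in CD4SP. The RefSeq transcript made up 74.8% of the sum in CD8SP and 74.7% in CD4SP. Set side by side on the exon-based scale, which is per length, Itpr3 exceeded Itpr1 in CD8SP (9.70 and 4.12 FPKM), and the 2 receptors were close in CD4SP (6.82 and 6.90 FPKM). Whether the balance of the receptors differs between the lineages has no replicate check.

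Several segments of Itpr1 are known to be spliced in or out: SI, in the part of the protein that binds IP3, SII, whose inclusion is known mainly from neurons, and SIII. They are shown because the lineages share the first and differ most in the last. The letters are from GENCODE M21 transcripts on GRCm38, plus strand of chromosome 6, read 5′ to 3′. For SIII the segment is in capitals and the 15 bases of transcript on each side are in lower case.
Itpr1 SI, chr6:108365299-108365343: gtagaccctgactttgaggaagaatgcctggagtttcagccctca
Itpr1 SII exon 40, chr6:108423333-108423365: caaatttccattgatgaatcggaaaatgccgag
Itpr1 SII exon 41, chr6:108431461-108431496: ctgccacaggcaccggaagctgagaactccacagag
Itpr1 SII exon 42, chr6:108432646-108432696: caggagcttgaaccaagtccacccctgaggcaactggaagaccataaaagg
Itpr1 SIII, chr6:108388339-108388365: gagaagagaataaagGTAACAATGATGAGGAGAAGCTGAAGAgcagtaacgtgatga

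Each of these segments has a length that is a multiple of 3. SI, exon 12 of the gene with 45 bases, was included whole in 95.7% of the summed FPKM of transcripts spliced across it in CD8SP, at 4.05 FPKM, and in 95.6% in CD4SP, at 5.31 FPKM. The rest was 1 transcript of 0.182 FPKM in CD8SP that enters SI 4 bases late, and 1 transcript of 0.245 FPKM in CD4SP that leaves SI out.

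SII consists of exons 40, 41 and 42, of 33, 36 and 51 bases. Transcripts with all 3 exons carried 2.31 FPKM in CD8SP and 3.24 FPKM in CD4SP, and in both lineages the RefSeq transcript was the only one with them. Transcripts that leave out SII alone carried 2.14 FPKM over 3 assembled transcripts in CD8SP and 3.26 FPKM over 5 in CD4SP. Their shares were thus 48.1% in CD8SP and 40.3% in CD4SP. In CD4SP a form with exon 42 alone had 0.765 FPKM, or 9.45%. Another CD4SP transcript, of 0.823 FPKM or 10.2%, joins exon 39 to exon 45 and so lacks SII as well. Neither was seen in CD8SP. With that longer skip counted, the CD4SP share without SII passes that of CD8SP, so the order depends on the definition. The exon profile, built from the same transcripts, dips at this place: over exons 40 to 42 both lineages fall below the neighbouring exons.

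SIII, 27 bases added by a downstream 5′ splice site, differed most. It was carried by 1.54 FPKM and left out by 2.49 FPKM in CD8SP, an inclusion of 38.3%. In CD4SP it was carried by 0.765 FPKM and left out by 6.40 FPKM, an inclusion of 10.7%. The difference of 27.6 percentage points passed the 20 points used for calling a splicing event, and rests on 2 transcripts with SIII in CD8SP and 1 in CD4SP, a 59-exon assembly that is also the one with exon 42 alone. The intron that follows SIII, chr6:108388366-108389366, was scored as retained at 37.4% in CD8SP and 69.99% in CD4SP, with the SIII transcripts as its spliced form, so these 2 events share their transcripts. The transcripts that run on through this intron hold the 27 bases too and are not counted in the inclusion. A further CD8SP transcript, of 0.198 FPKM, is spliced from a 5′ site 6 bases downstream. It also holds the 27 bases and is not counted.

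Of the store sensors, Stim1 starts store-operated entry in T cells, and Stim2 responds to smaller losses of store calcium. Stim1 had 16.9 FPKM in CD8SP, with an interval of 15.5 to 18.1, and 11.3 FPKM in CD4SP, with an interval of 10.1 to 12.2. The log2 ratio was 0.57, a 1.49-fold difference. All 12 exons were higher in CD8SP, from 1.31-fold to 2.27-fold. Transcripts holding the whole RefSeq intron chain had 13.4 FPKM in CD8SP and 8.55 FPKM in CD4SP.

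The 2 lineages divided Stim1 differently among transcript starts. The RefSeq transcript carried 79.3% of the Stim1 sum in CD8SP and 19.5% in CD4SP. In CD4SP, 6.35 FPKM, or 65.9% of the scored 5′ forms, lay in 1 assembled 13-exon transcript that begins at chr7:102261565, upstream of the RefSeq start at 102267824, and splices to position 102268376 inside RefSeq exon 1. The splice acceptor precedes the start codon at 102268415, so the coding sequence in this model is that of RefSeq. In CD8SP this form was at 0, and 13.4 FPKM, or 88.7%, lay in the unspliced first exon. A further 8.08% in CD8SP began upstream in a pair of 4-exon transcripts, of 0.497 and 0.722 FPKM, that splice past the whole of RefSeq exon 1 and with it the start codon; no such transcript was above 0 in CD4SP. As an event with both forms in both files, the intron chr7:102268272-102268375 within exon 1 was retained at 82.9% in CD8SP and 57.3% in CD4SP. Most of the spliced form was a 2-exon transcript ending inside the next intron, at 2.26 FPKM in CD8SP and 2.45 FPKM in CD4SP, which holds no RefSeq intron of Stim1 and so is outside the gene sum. No long-read isoform of Stim1 was assigned to the full chain, so neither 5′ form has a full-length isoform in the catalogues.

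Known variants of Stim1 that change the protein were spliced into no transcript of either short-read file. The long form of exon 11, known from skeletal muscle as STIM1L, was spliced in no transcript, against 13.9 FPKM in CD8SP and 8.55 FPKM in CD4SP of transcripts with the usual exon 11 junction. Transcripts that splice in the extra exon before exon 11 or the extra exon after it were likewise absent, and the matching usual junction before exon 11 had 15.2 FPKM in CD8SP and 9.98 FPKM in CD4SP. Some transcripts run unspliced past exon 11 and so hold the bases of the long form and of the extra exon after it. They are counted in neither form, and had 0.895 and 0.3996 FPKM in CD8SP and 1.08 and 0.345 FPKM in CD4SP.

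Stim2 had 14.7 FPKM in CD8SP, with an interval of 12.4 to 15.04, and 17.3 FPKM in CD4SP, with an interval of 14.7 to 17.7. These intervals overlapped, at a log2 ratio of -0.24. The exon-based values were 11.4 FPKM in CD8SP and 11.7 FPKM in CD4SP. Of the RefSeq exons, 5 of 12 were higher in CD8SP and 7 of 12 in CD4SP, the latter including the last exons of the gene. A pair of Stim2 exons is shown: exon 9, which marks an inhibitory variant, and exon 4, where the lineages parted. Both are from GENCODE M21 on GRCm38, plus strand of chromosome 5, numbered in the model that includes exon 9.
Stim2 exon 9, chr5:54110116-54110139: gtcgctgcctcctatctcctgcag
Stim2 exon 4, chr5:54102575-54102686: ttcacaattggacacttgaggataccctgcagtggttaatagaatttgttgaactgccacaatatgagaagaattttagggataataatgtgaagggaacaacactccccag

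Exon 9, of 24 bases, gives the STIM2.1 (STIM2β) protein, known to hold back store-operated entry, and was spliced into no short-read transcript of either lineage; 1 transcript of 1.37 FPKM in CD8SP runs unspliced through this place. Transcripts that join its neighbours directly had 10.5 FPKM in CD8SP and 10.4 FPKM in CD4SP. All full-length long-read isoforms of Stim2, 1 in CD8SP and 2 in CD4SP, matched the 12-exon model without it. Exon 4, of 112 bases, encodes part of the SAM domain, and its length is not a multiple of 3. It was included at 11.3 FPKM in CD8SP, where a 6-exon transcript of 0.608 FPKM, or 5.12%, leaves it out together with the following exons by joining exon 3 to exon 8, and no transcript skips exon 4 alone. In CD4SP it was included at 6.60 FPKM and skipped alone at 3.78 FPKM, or 36.4%, in a single assembled 11-exon transcript. The skip was absent from the full-length long-read isoforms of both lineages.

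**Figure D2:**
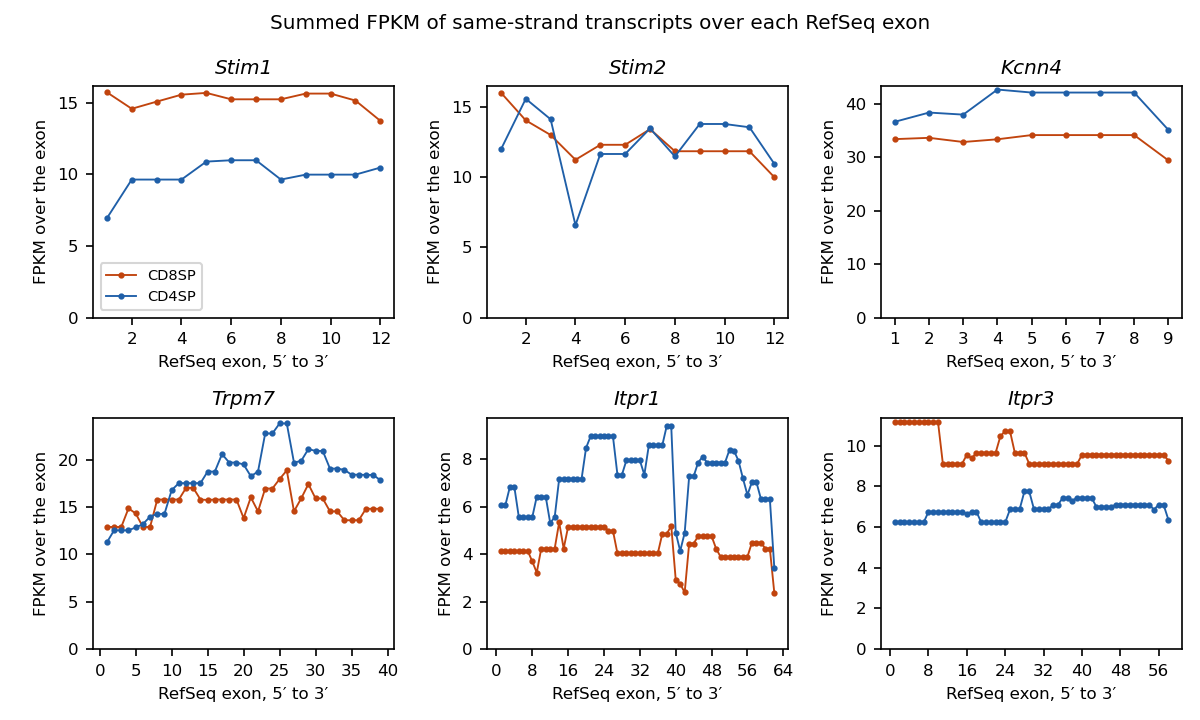
Summed FPKM of transcripts on the same strand, or with no strand given, over each RefSeq exon in 5′ to 3′ order. Shown are Stim1, Stim2, Kcnn4, Trpm7, Itpr1 and Itpr3 in CD8SP (red) and CD4SP (blue). Stim1 and Itpr3 are higher in CD8SP over every exon, Kcnn4 and Itpr1 in CD4SP; Stim2 exon 4 dips in CD4SP to 6.60 FPKM, and Itpr1 dips at exons 40 to 42 in both. A transcript that spans several exons adds the same FPKM to each, so the points of a line are not separate measurements.

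The ORAI proteins form the pore. Orai1, the main pore subunit of store-operated entry in human T cells, had 9.59 FPKM in CD8SP, with an interval of 8.50 to 10.7, and 7.14 FPKM in CD4SP, above its interval of 5.70 to 6.81. The log2 ratio of 0.42 did not reach the fold required. The exon-based values were close, 9.60 FPKM in CD8SP and 9.19 FPKM in CD4SP. The RefSeq transcript alone gave the opposite order, with 6.24 FPKM in CD8SP and 7.14 FPKM in CD4SP, since 1 assembled transcript held the rest of Orai1 in CD8SP.

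Orai2, which in mouse T cells joins ORAI1 in mixed channels and reduces their current, had 12.2 FPKM in CD8SP, below its interval of 12.9 to 14.8, and 6.36 FPKM in CD4SP, with an interval of 5.73 to 7.01. The log2 ratio was 0.92, a 1.91-fold difference just short of the call. On the exon-based scale the difference was 1.59-fold, at 14.05 FPKM in CD8SP and 8.86 FPKM in CD4SP. All 3 exons were higher in CD8SP.

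Orai3, the third pore subunit, had 5.84 FPKM in CD8SP, with an interval of 5.39 to 6.30, and 2.31 FPKM in CD4SP, with an interval of 1.99 to 2.63. Orai3 was called, with a log2 ratio of 1.30 and a 2.53-fold difference. The exon-based values of 6.42 FPKM in CD8SP and 2.53 FPKM in CD4SP were also called. Nearly all of it was the RefSeq transcript, 100% in CD8SP and 94.1% in CD4SP, so the value did not depend on assembled transcripts. By exon-based level the pore genes stood in the order Orai2, Orai1, Orai3 in CD8SP (14.05, 9.60 and 6.42 FPKM). In CD4SP, Orai1 and Orai2 were close at 9.19 and 8.86 FPKM, with intervals that overlap although that of Orai1 lies below its value, and Orai3 was lowest at 2.53 FPKM.

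Orai2 also held 9 of the 26 called splicing events, all upstream of RefSeq exon 2. In this gene 13 events were tested, and over all genes 19.9% of 90648 events were called. Of the 9, only the 3 given at the end of this paragraph had both forms in both files. On chromosome 5, minus strand, the RefSeq model holds its start codon in exon 2, at 136161709 to 136161711. The annotated model with the extra exon described next instead starts at a codon at 136167851 to 136167853, which lies inside the regions of 5 of the 9 events, so these are not all outside annotated coding sequence. Transcripts joining exon 1 directly to exon 2 had 7.60 FPKM, or 62.5%, in CD8SP and 1.10 FPKM, or 17.3%, in CD4SP. Transcripts with a further exon between them, entered at the acceptor of an annotated 109-base exon at chr5:136168366-136168474, had 0.618 FPKM, or 5.08%, in CD8SP and 2.08 FPKM, or 32.6%, in CD4SP. The start codon of the annotated model lies outside these 109 bases. The CD4SP transcript and that of 0.397 FPKM in CD8SP splice that codon out. The other in CD8SP, of 0.221 FPKM, has a longer exon of 650 bases that holds it. Scored as a skipped exon, the 109 bases were included at 4.97% in CD8SP and 65.4% in CD4SP. The longer form of the overlapping 3′ site event had 7.52% in CD8SP and 67.9% in CD4SP. The intron between that exon and exon 2 was retained at 86.9% in CD8SP and 54.9% in CD4SP. These 3 events had both forms in both files and share transcripts.

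**Figure D3:**
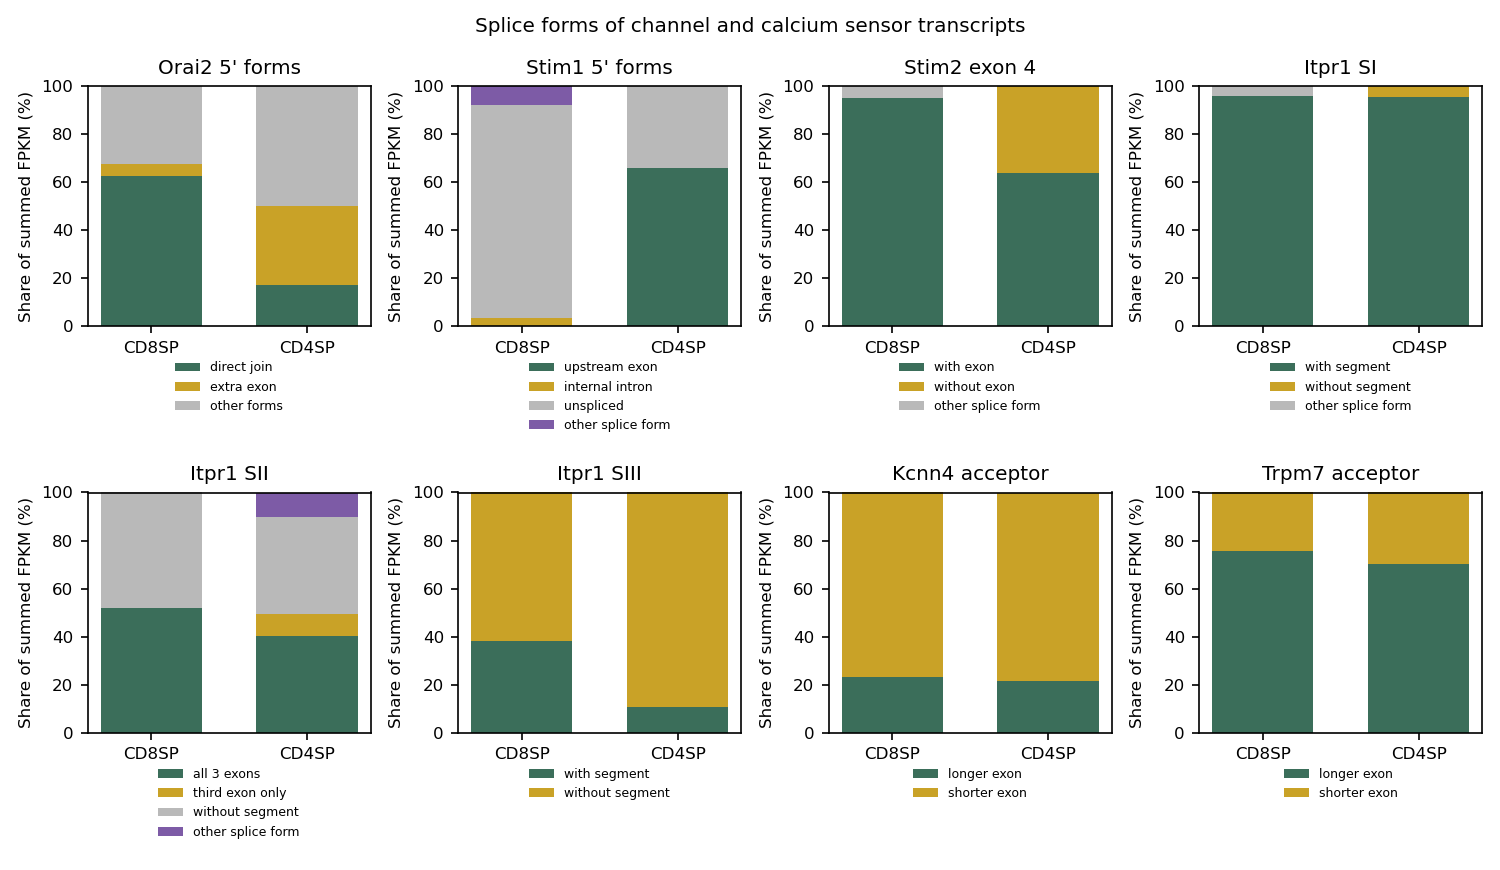
Share of summed FPKM (%) in each splice form for 8 places in 6 genes, with CD8SP as the left bar and CD4SP as the right bar of each panel. The 5′ forms of Orai2 and Stim1, Stim2 exon 4 and Itpr1 SIII differ by over 20 percentage points, while Itpr1 SI and the annotated acceptors of Kcnn4 and Trpm7 differ by less.

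The potassium channel Kv1.3 is the product of Kcna3, a gene whose RefSeq model is a single exon of 1968 bases at chr3:107036162-107038129. The RefSeq transcript had 16.3 FPKM in CD8SP, above its interval of 14.1 to 15.7, and was listed at 0 in CD4SP, with an interval up to 0.0121. Kcna3 was called as higher in CD8SP, and no fold is given against a listed 0. The gene sum misses assembled transcripts here, since a single-exon gene has no intron to share. In CD4SP 3 sense transcripts ran through the whole of Kcna3, at 3.69, 3.35 and 2.11 FPKM, summing to 9.15 FPKM. In CD8SP there was 1, at 3.46 FPKM, which like the CD4SP transcript of 2.11 FPKM continues into the lncRNA gene AI504432 downstream. The CD4SP transcript of 3.69 FPKM uses the same acceptor as these, but an extra exon before it leaves no shared intron. It was therefore assigned to no gene. With these counted, the exon-based level of Kcna3 was 19.7 FPKM in CD8SP and 9.15 FPKM in CD4SP, a 2.15-fold difference.

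The exon-based difference in Kcna3 was called at a log2 ratio of 1.10, and was not called at 0.89 once the libraries were scaled to a median log2 ratio of 0, an alternative added after the values were seen. Antisense transcripts over Kcna3 summed to 4.35 FPKM over 4 transcripts in CD8SP and 0.883 FPKM in 1 transcript in CD4SP. The labels do not say whether strand was used in the assembly, and without it reads of the 2 strands cannot be told apart. No long-read isoform was assigned to Kcna3 in either lineage.

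**Figure D4:**
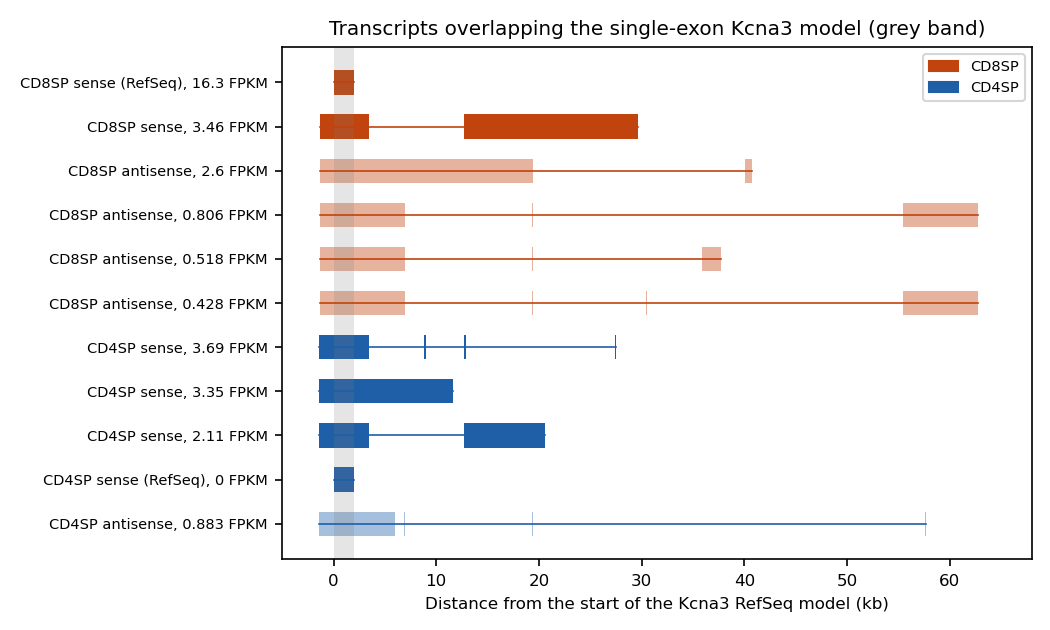
Transcripts above 0 FPKM that overlap the Kcna3 RefSeq model (grey band), with the RefSeq transcript of each lineage, by distance in kb from the start of the model. Blocks are exons and lines introns, red for CD8SP (upper rows) and blue for CD4SP (lower rows), with antisense transcripts paler; in CD4SP the RefSeq transcript is listed at 0 and the 3 longer sense transcripts carry 9.15 FPKM.

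Kcnn4 encodes KCa3.1, the potassium channel opened by calcium through calmodulin, and was the highest of the 10 genes in both lineages. It had 33.4 FPKM in CD8SP, with an interval of 31.3 to 35.6, and 40.7 FPKM in CD4SP, with an interval of 38.2 to 43.6. All 9 exons were higher in CD4SP, and the log2 ratio was -0.28. On the exon-based scale Kcnn4 exceeded Kcna3 in both lineages, with 31.5 and 19.7 FPKM in CD8SP and 37.2 and 9.15 FPKM in CD4SP. Its annotated splicing event is an 85-base shift of the last acceptor, chr7:24384637-24384721, beyond the stop codon at 24384171. The longer form made up 23.0% in CD8SP and 21.3% in CD4SP, a difference of 1.68 points that was not called.

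Trpm7 encodes a channel for magnesium, calcium and zinc fused to a kinase, which thymocyte development in the mouse requires. It had 22.5 FPKM in CD8SP, with an interval of 19.1 to 22.6, and 28.6 FPKM in CD4SP, above its interval of 23.1 to 28.3. The log2 ratio was -0.34, and 32 of 39 exons were higher in CD4SP. The exon-based values were 15.4 FPKM in CD8SP and 18.2 FPKM in CD4SP, and the RefSeq transcripts alone ran the other way, at a log2 ratio of 0.25. Its annotated event is a pair of acceptors 3 bases apart in the coding sequence. The bases between them are in capitals, with 15 bases of transcript on each side, from GENCODE M21 on GRCm38, minus strand.
Trpm7 acceptor, chr2:126805085-126805087: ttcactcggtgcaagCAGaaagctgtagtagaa
The form with these bases had 12.02 FPKM and the form without them 3.88 FPKM in CD8SP. In CD4SP the form with them had 13.9 FPKM and the form without them 5.93 FPKM. Inclusion was 75.6% in CD8SP and 70.1% in CD4SP, a difference of 5.49 points that was not called.

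Over the 10 genes, 134 splicing events of 7 types reached a summed FPKM of 1 in each lineage, and 26 of them, or 19.4%, differed by at least 20 points, beside 19.9% of the 90648 events of all genes. Inclusion was higher in CD8SP in 12 and in CD4SP in 14. Most involved a form assembled in 1 file only, which differs by construction, and 6 of the 26 differed by the full 100 points. Among the 28 events with both forms in both files, 6 were called, or 21.4%, beside 13.7% of all such events; 3 lay in Orai2, 1 in Stim1 and 2 in Itpr1, and within a gene they share transcripts. Of the 2 events with both forms annotated, those of Kcnn4 and Trpm7, 0 were called, beside 17.8% of all annotated events. Itpr3 had 29 tested events and Orai1 and Orai3 had 2 each, with none called, and Kcna3 has no intron.

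The long-read catalogues list each isoform once and give no read counts, which leaves the depth of each isoform unknown. They held 21 isoforms of the 10 genes among 9476 in CD8SP and 28 among 8289 in CD4SP. No isoform was assigned to Orai1, Orai3, Kcna3 or Itpr3 in either lineage. Only Stim2 had full splice matches. Its 12-exon isoform of 3425 bases in CD8SP and its isoforms of 3402 and 3637 bases in CD4SP each predict a coding sequence of 2439 bases. Those 3 isoforms end before the annotated 3′ end, by 1356 bases in CD8SP and by 1358 and 1123 bases in CD4SP.

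Kcnn4 had the most isoforms, 7 in CD8SP and 11 in CD4SP. Of these, 4 in CD8SP and 8 in CD4SP were classed as intron retention, and 2 in CD8SP and 6 in CD4SP were predicted targets of nonsense-mediated decay. The 2 in CD8SP were a fragment and an isoform with an unannotated splice site, neither classed as retention. Those in CD4SP were retention isoforms and fragments. The fragments start 8167 to 8202 bases inside the annotated 5′ end, with a predicted coding sequence of 504 bases. What these missing ends add to the decay calls was not tested. None matched the whole 9-exon chain in either lineage; the longest chain had 7 exons in CD8SP and 6 in CD4SP. Stim1 had 7 isoforms in each lineage, of which 6 in CD8SP and all 7 in CD4SP were single-exon; the exception was a 7-exon 3′ piece of the 12-exon model in CD8SP. Trpm7 had 2 isoforms in CD8SP and 5 in CD4SP, the longest chains covering the last part of the gene with 13 exons in CD8SP and 18 exons in CD4SP, of 39. Orai2 had 2 single-exon isoforms in CD8SP and 1 in CD4SP, and Itpr1 had none in CD8SP and 2 single-exon ones in CD4SP.

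Many isoforms ended before genomic A-rich sequence, where the primer for first-strand synthesis can start inside a transcript. At least 60% A followed the 3′ end in 14 of 21 isoforms in CD8SP and 15 of 28 in CD4SP, and in all 11 single-exon isoforms of CD8SP and 11 of 12 of CD4SP. Without them 7 isoforms remain in CD8SP and 13 in CD4SP.

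**Figure D5:**
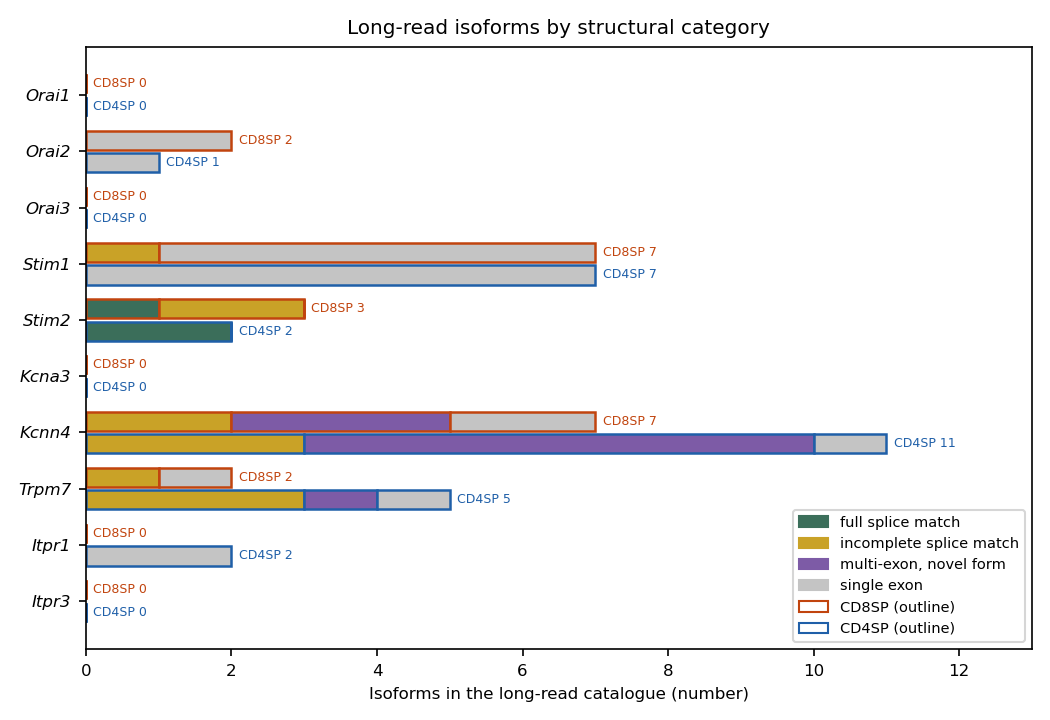
Number of long-read isoforms per gene by structural category, with CD8SP above CD4SP for each gene and the total printed beside each bar. Stim2 is the only gene with full splice matches, 1 in CD8SP and 2 in CD4SP, and Kcnn4 has the most isoforms, 7 in CD8SP and 11 in CD4SP.

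The wider machinery of calcium, potassium and magnesium handling was read from 92 further genes, of which 91 had a symbol in the files and 46 reached 1 FPKM in a lineage. Of these 46, 5 were called higher in CD8SP (10.9%, beside the 10.02% of all genes) and 3 higher in CD4SP (6.52%, beside 4.76%). The median log2 ratio of the 46 was 0.15, against 0.22 over all genes tested.

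The regulators of store-operated entry held 3 of the 5, with 9 of 11 genes tested and none called higher in CD4SP. Saraf, which promotes the slow inactivation of store-operated channels, had 153.6 FPKM in CD8SP and 49.5 FPKM in CD4SP, the highest level of its list. Esyt1, a tether between endoplasmic reticulum and plasma membrane, had 72.0 FPKM in CD8SP and 30.4 FPKM in CD4SP. Cracr2a, a calcium-binding protein that stabilises STIM1 with ORAI1, had 8.63 FPKM in CD8SP and 3.13 FPKM in CD4SP, although its RefSeq transcripts alone ran the other way at a log2 ratio of -2.79. All 3 were also called by the exon-based value.

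Among 9 tested genes of IP3 turnover and other release channels, the lysosomal channel gene Mcoln2 was called, at 1.23 FPKM in CD8SP and 0.0923 FPKM in CD4SP, but not by the exon-based value. The highest of that list was Itpr2, the type 2 IP3 receptor, with 22.1 FPKM in CD8SP and 29.0 FPKM in CD4SP, above both Itpr1 and Itpr3. On the exon-based scale it had 14.05 FPKM in CD8SP and 15.1 FPKM in CD4SP. Kcna2, a Kv1 channel gene, had 5.27 FPKM in CD8SP and 1.19 FPKM in CD4SP and was called by both measures. The other potassium channel gene tested, Kcnab2, encodes a Kv1 beta subunit and had 28.5 FPKM in CD8SP and 18.4 FPKM in CD4SP, not called.

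Genes called as higher in CD4SP were Mcu, P2rx7 and Cacnb3. Mcu, the pore of the mitochondrial calcium uniporter, had 2.30 FPKM in CD8SP and 5.14 FPKM in CD4SP, but was not called by the exon-based value. Within its list of 7 tested genes, Smdt1, the uniporter's essential small subunit, was highest with 27.9 FPKM in CD8SP and 21.02 FPKM in CD4SP. P2rx7, an ATP-gated cation channel, had 0.411 FPKM in CD8SP and 2.87 FPKM in CD4SP. Cacnb3, a beta subunit of voltage-gated calcium channels, had 0.215 FPKM in CD8SP and 1.58 FPKM in CD4SP. P2rx7 and Cacnb3 were called by both measures. With RefSeq transcripts alone neither was called, at log2 ratios of -0.93 for P2rx7 and -0.98 for Cacnb3. Of 6 tested genes for other calcium-permeable channels, Trpv2 was highest with 12.7 FPKM in CD8SP and 7.22 FPKM in CD4SP. None of 4 tested calcium pump genes was called, with Atp2a3, the SERCA3 pump, highest at 37.5 FPKM in CD8SP and 35.1 FPKM in CD4SP. None of 9 tested magnesium and volume-regulated anion channel genes was called, with Magt1 highest at 14.6 FPKM in CD8SP and 10.9 FPKM in CD4SP.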

How the data were processed

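The 10 samples were 1 long-read and 4 short-read lane samples per lineage. The deposited short-read files give an FPKM and its interval per transcript; column 2 of those files names Cufflinks, and per the submitters' processing notes TopHat2 2.0.14, Cufflinks 2.1.1 and the build GRCm38 were used. The deposited long-read tables list isoforms with length, exon number, category and, per the file headers, the percent of A after the 3′ end. Another deposited table of chained isoforms was not used, since its identifiers are not paired with genes.

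Symbols came from RefSeq's gene table for GRCm38.p6; 30003 of 30589 RefSeq transcripts matched in CD8SP and 30004 in CD4SP. Exon sequences and codon positions came from GENCODE M21. Splicing events were drawn up from all intron chains, over all genes, and percent inclusion is the share of summed FPKM in the longer or upstream form; a retained intron needed 10 bases of exon on each side. The scripts were tested on simulated data with known answers. The 10 genes and all lists were chosen with earlier results of these data known. Every gene of the 10 is named; of the further lists, each called gene and the gene with the highest mean FPKM; of events, each annotated one and each called one with both forms in both files. The Stim1, Stim2 and Itpr1 variants were chosen from known biology, and Stim2 exon 4 and the 5′ forms of Orai2 and Stim1 after their values were seen. Ratios, fold differences and shares were computed here from the deposited FPKM. The T cell marker list matched 3 of 5 genes, at 612 FPKM in CD8SP and 480 FPKM in CD4SP; erythroid genes summed to 3.91 FPKM in CD8SP and 6.15 FPKM in CD4SP (3.95 in CD8SP and 9.13 in CD4SP by the exon-based value), and stromal genes to 15.9 FPKM in CD8SP and 23.6 FPKM in CD4SP, most of it Pecam1.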

Additional observations from a re-analysis of the deposited data

Results flagged for a closer look

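The long-read catalogues also hold isoforms on the strand opposite to the 10 genes, in data that no comparison above uses. There were 8 such isoforms in CD8SP, at 4 genes, and 11 in CD4SP, at 7 genes. All 8 in CD8SP and 10 of the 11 in CD4SP had a single exon, and at least 80% A followed each 3′ end. Their lengths ran from 1654 to 5041 bases in CD8SP and from 1641 to 4379 bases in CD4SP.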

How the results depend on the processing

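No paired analysis was possible because the lanes of a lineage are merged in 1 deposited file, and for the same reason no replicate could be left out. Among the 10 genes 2 were called, and 2 under a pseudocount of 1, scaling to a median log2 ratio of 0, no minimum FPKM, a minimum of 5 FPKM, the exon-based value and no interval criterion. RefSeq transcripts alone gave 4, adding Orai2 and Stim1, and the exon-based value with scaling, added after the values were seen, gave 1, Orai3. Scaling divides CD8SP by 1.16, the median ratio of 8699 genes. Directions reversed with RefSeq transcripts alone for Orai1 (-0.19), Stim2 (0.58), Trpm7 (0.25) and Cracr2a (-2.79), with scaling for Atp2a3 (-0.12), and with the scaled exon-based value for Orai1 (-0.15) and Atp2a3 (-0.026). Of the further genes 8 were called, 15 with no minimum and 5 with a minimum of 5 FPKM; RefSeq transcripts alone gave 9, of which 3 were among the 8. Splicing events called numbered 26, but 44 at 10 points, 4 at a summed FPKM of 5 and 6 with both forms in both files. Long-read isoforms numbered 21 in CD8SP and 28 in CD4SP, 7 in CD8SP and 13 in CD4SP without those before A-rich sequence, and 10 in CD8SP and 16 in CD4SP with several exons. The cause of these changes was not tested. Some forms are low: the Itpr1 forms with SIII and without SI each sum to under 2 FPKM. How many fragments lie behind them is not given, so their depth was not tested.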

Other observations

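Beyond RefSeq, GENCODE M21 lists 32 introns of the 10 genes, of which 5 were in assembled transcripts above 0 in CD8SP and 7 in CD4SP, 5 of them in both. These lay in Orai2, with 3 in each lineage, and in Itpr1, with 2 in CD8SP and 4 in CD4SP. Introns found in neither annotation numbered 29 in CD8SP and 45 in CD4SP, with 5 in both; 3 of those 5 were in Kcnn4, 1 in Trpm7 and 1 in Itpr3.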
